A study of Mus musculus with 6 samples.

Results

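The clustered protocadherin genes were taken as every symbol of the count tables that starts with Pcdha followed by a digit or c, Pcdhb followed by a digit, or Pcdhga, Pcdhgb or Pcdhgc. This gave 59 of 24411 gene symbols: 13 alternate Pcdha symbols, 22 Pcdhb genes, 12 Pcdhga genes, 7 Pcdhgb genes and 5 C-type genes. The C-type genes are Pcdhac1, Pcdhac2, Pcdhgc3, Pcdhgc4 and Pcdhgc5. Pcdha7-g, counted among the Pcdha symbols, names a gene that starts beside Pcdha7 and runs on to the end of the Pcdhg cluster. RNA had been sequenced in bulk from mouse tissue at postnatal day 18, in 3 wild-type libraries (WT) and 3 libraries with the genotype Atoh7 Large Enhancer KO, called enhancer KO below. The series concerns a regulatory module for retinal ganglion cells, and the comparison asks how transcripts of this tissue differ when the enhancer is missing. No label gives strain, sex, litter or whether animals were pooled, so p-values measure only the spread between these libraries. That spread may be technical, except that sex-linked genes set WT replicate 1 apart.

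Clustered protocadherins are cadherin-family proteins of the neuronal surface, encoded by tandem Pcdha, Pcdhb and Pcdhg clusters. A Pcdha or Pcdhg transcript joins 1 variable exon, which encodes the extracellular, transmembrane and proximal cytoplasmic parts, to constant exons shared by its whole cluster, while a Pcdhb gene is a single exon. A neuron chooses a few alternate promoters at random, with CTCF, cohesin and DNA methylation taking part, whereas C-type genes are expressed more uniformly. The proteins recognise identical copies on opposing membranes, and the Pcdhg cluster is known for self-avoidance of dendrites, Purkinje cell dendrites among them.

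Each library held 57466712 to 65530873 reads, of which 22812075 to 33076111 were counted in genes in WT and 36849747 to 40858310 in enhancer KO. Atoh7, whose enhancer was targeted, had 63, 42 and 72 reads across WT libraries and 28, 33 and 29 across enhancer KO libraries, or 2.04 ± 0.0945 and 0.766 ± 0.0835 counts relative to scaled library size (CPM; SD, n = 3; log2 fold change -1.41, edgeR adjusted p = 0.000353). The labels name cerebellum in the protocol and retina as the tissue. Granule neuron markers summed to 2518 to 4695 CPM and Purkinje markers to 6956 to 9906 CPM per library, while only 4 of 13 photoreceptor genes had enough reads to be tested and the list summed to 8.54 to 14.9 CPM. Reads outside annotated exons were 32.4% ± 1.56 of all reads in WT and 17.4% ± 0.735 in enhancer KO (SD, n = 3, no overlap; exact two-sided permutation p = 0.1, the smallest this design allows). WT replicate 2 stood apart, with 20.4% of its reads unmapped, and WT replicate 1 differed from the others in sex-linked genes, with Xist at 1054 CPM and Ddx3y at 0.

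The 3 clusters lie on chromosome 18 of mm10, Pcdha at 36930285 to 37188897, Pcdhb at 37264998 to 37521419 and Pcdhg at 37661775 to 37841873, by RefSeq spans on GRCm38.p6. A read was counted only where it fell in a single gene. The Pcdha constant exons (2860 bases) and Pcdhg constant exons (2116 to 2119 bases) belong to several genes at once, so reads within them were ambiguous and the counts of Pcdha and Pcdhg genes come largely from each gene's own exon. Own exons span 2346 to 3028 bases in Pcdha and 2499 to 2961 bases in Pcdhg. Ambiguous reads were 0.640% ± 0.0340 of the reads in genes or ambiguous in WT and 0.694% ± 0.00363 in enhancer KO (SD, n = 3), with no overlap between the groups (exact two-sided permutation p = 0.1). Near-identical exons among these genes could also lose reads, since reads aligned to several places were not counted.

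Of the 59 genes, 54 had enough reads for the test. Pcdha4, Pcdha6 and Pcdha7 were listed at 0 reads in all 6 libraries, on both strands, Pcdha7-g had 0 to 2 reads per library and Pcdhb1 had 0 to 7. RefSeq holds a further gene that starts 41, 6 and 9 bases from the starts of Pcdha4, Pcdha6 and Pcdha7 and runs on to the end of the Pcdhg cluster, and no such gene beside the other Pcdha genes. These 3 genes are Gm37013, Gm38666 and Pcdha7-g, listed in the count tables with 0 to 1, 0 to 4 and 0 to 2 reads per library. Reads that fall in more than 1 gene are not counted, so the zeros of Pcdha4, Pcdha6 and Pcdha7 are no measure of their level. Together the clustered genes held 14850 to 29361 reads per library, or 0.0710% ± 0.00552 of gene reads in WT and 0.0718% ± 0.000539 in enhancer KO (SD, n = 3), and these ranges overlapped.

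**Figure D1:**
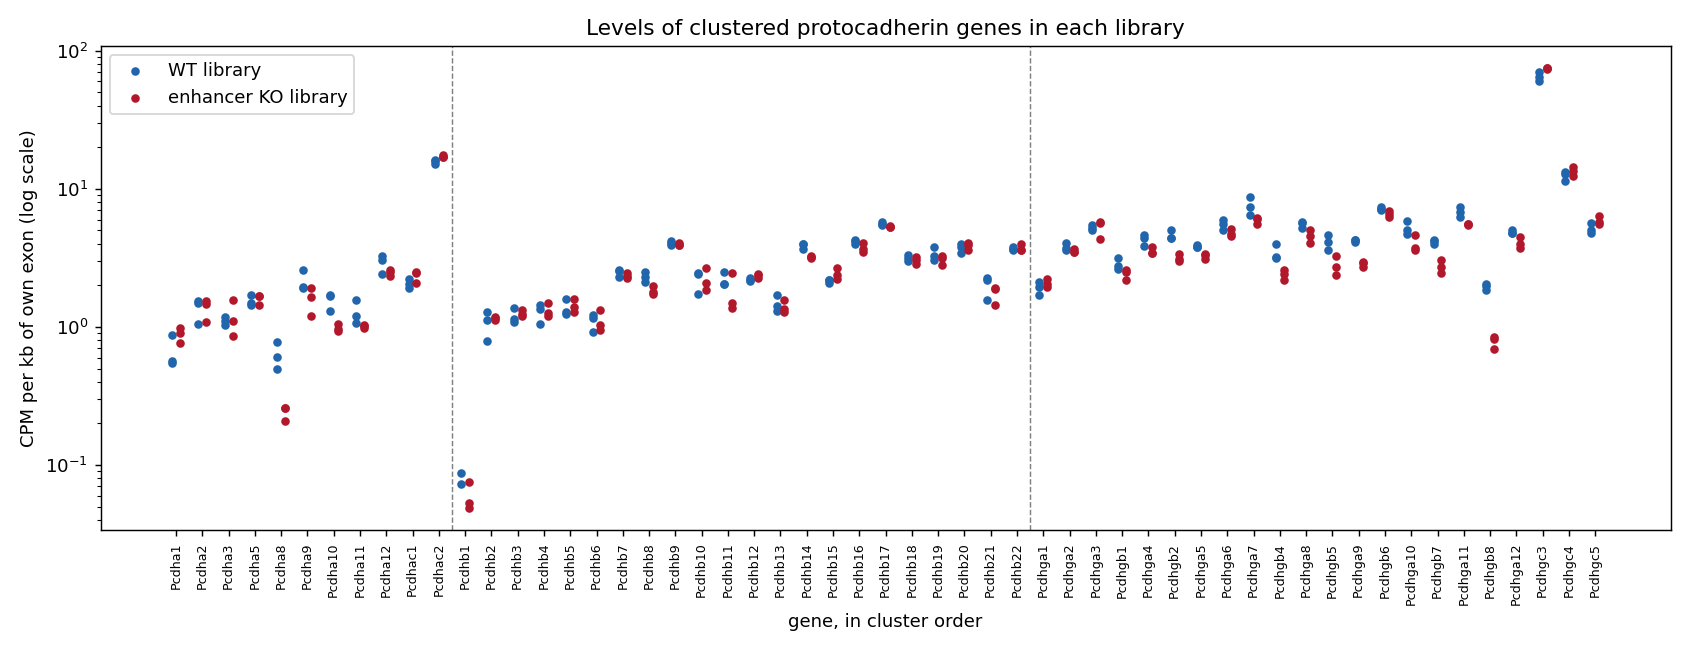
Level of each clustered protocadherin gene in each library, in CPM per kilobase of the gene's own exon on a log axis, with genes in cluster order on the x axis and 1 point per library. Pcdhgc3 stands highest, with a mean of 70.1 over the 6 libraries, and Pcdha8 lowest among the genes tested, with 0.436.

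Levels per length spread widely. Pcdhgc3, which binds the Wnt pathway protein Axin1 and acts in dendrite arborization, stood highest at 70.1 CPM per kilobase of own exon averaged over the 6 libraries. Pcdhac2, needed for the spacing of serotonergic axons, followed at 16.5 CPM per kilobase and Pcdhgc4, needed for survival of many neurons, at 13 CPM per kilobase. The other C-type genes were nearer the alternate genes, Pcdhgc5 at 5.53 and Pcdhac1 at 2.21 CPM per kilobase. The highest gene of each alternate subfamily, in CPM per kilobase, was Pcdhgb6 at 6.87, Pcdhga7 at 6.75, Pcdhb17 at 5.44 and Pcdha12 at 2.70. The subfamily medians in CPM per kilobase were 1.27 for alternate Pcdha, 2.27 for Pcdhb, 4.52 for Pcdhga, 3.45 for Pcdhgb and 13 for the C-type genes.

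Between the groups, 11 of 19 alternate Pcdhg genes, 2 of 9 tested alternate Pcdha genes and 1 of 21 tested Pcdhb genes were lower in enhancer KO, and 1 of 5 C-type genes was higher. By edgeR's quasi-likelihood test with Benjamini-Hochberg adjustment over all genes, 14 of the 54 genes tested were lower at an adjusted p under 0.05, against 17.9% of all 15846 genes, and 1 was higher, against 13.4%. The 25.9% of clustered genes that were lower stands above the share of all genes, a difference that was not tested, and 39 passed in neither direction. The median log2 fold change of the 54 was -0.12, against 0.001 over all genes. The enhancer KO libraries all lay below the WT libraries for 21 genes, where 24.3% of all genes did so, and all above for 3, where 20.5% did. Bulk RNA cannot tell fewer cells of a type apart from less RNA per cell.

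**Figure D2:**
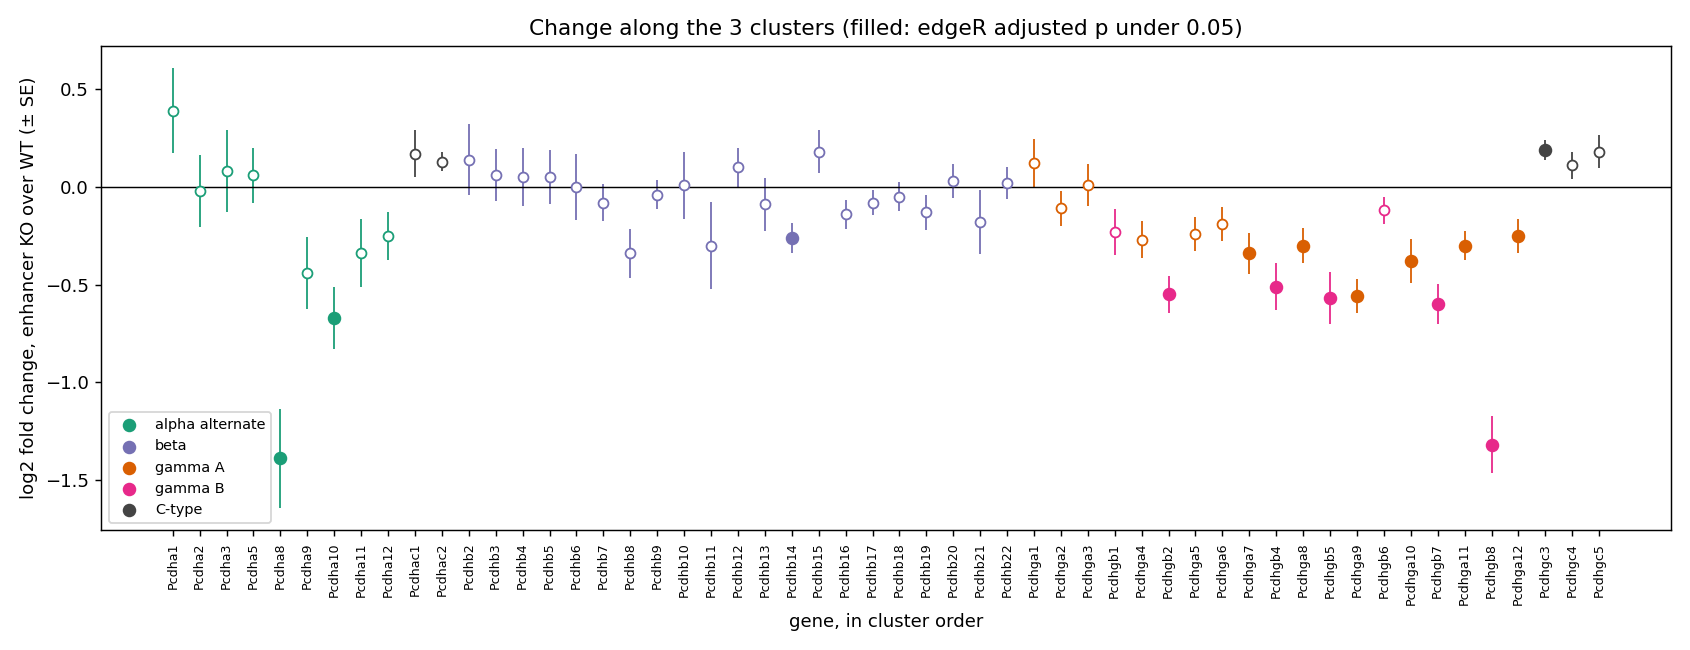
Log2 fold change of each tested gene, enhancer KO over WT, with its standard error as a bar and genes in cluster order on the x axis; filled points have an edgeR adjusted p under 0.05. Of the 19 Pcdhga and Pcdhgb genes, 17 lie below 0, and the 5 C-type genes lie between 0.11 and 0.19.

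The subfamilies differed in count and size. Of 19 alternate Pcdhg genes, 11 were lower and none higher by edgeR (0 higher at an unadjusted p under 0.05, 0 by limma-voom and 0 by DESeq2). Of all genes, 17.9% were lower and 13.4% higher by edgeR. Their summed level was 219, 231 and 232 CPM across WT libraries and 187, 188 and 177 CPM across enhancer KO libraries, so the groups did not overlap. The enhancer KO mean was 0.809 of the WT mean. All 59 genes together summed to 726 ± 18.6 CPM in WT against 702 ± 7.83 CPM in enhancer KO (SD, n = 3), a ratio of 0.968 that overlapped between the groups and was 1.01 when libraries were scaled by size alone.

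**Figure D3:**
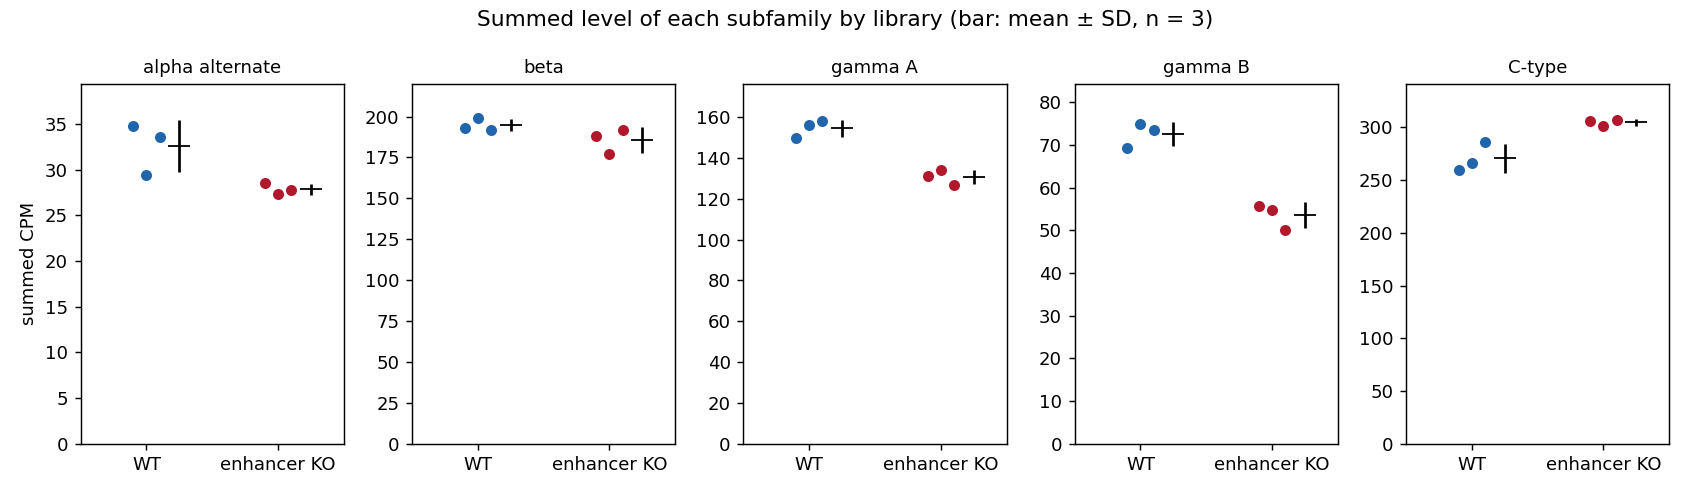
Summed CPM of each subfamily, with 1 point per library, WT in blue and enhancer KO in red, and a bar for the mean ± SD (n = 3); each y axis starts at 0. Pcdhgb sums were 69.4 to 74.9 CPM in WT against 50.2 to 55.8 CPM in enhancer KO, and C-type sums were 260 to 286 CPM in WT against 301 to 307 CPM in enhancer KO.

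Among the Pcdhgb genes, whose proteins are the smaller group of alternate gamma protocadherins, 5 of 7 fell, where 17.9% of all genes did. All 7 had every enhancer KO library below every WT library, where 24.3% of all genes did. Their median log2 fold change was -0.55. Pcdhgb8, annotated by RefSeq as a transcribed pseudogene, had 4.96, 4.64 and 5.12 CPM in WT against 2.10, 1.74 and 2.06 CPM in enhancer KO. It fell by 1.32 ± 0.145 on the log2 scale (SE; edgeR adjusted p = 4.97e-05). No other Pcdhg gene had so large a change.

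Pcdhgb7 was read at 10.3, 10.8 and 11.1 CPM in WT against at 7.92, 7.10 and 6.38 CPM in enhancer KO (log2 fold change -0.60 ± 0.102 SE, edgeR adjusted p = 0.00102). Pcdhgb2 had 11.3, 11.2 and 12.9 CPM in WT against 8.59, 7.70 and 7.84 CPM in enhancer KO (log2 fold change -0.55 ± 0.0947 SE, edgeR adjusted p = 0.00101). For Pcdhgb4 the WT libraries gave 8.20, 10.1 and 8.08 CPM and the enhancer KO libraries 5.58, 6.61 and 6.19 CPM (log2 fold change -0.51 ± 0.118 SE, edgeR adjusted p = 0.00643). In these 3 genes no enhancer KO library reached the lowest WT library. Pcdhgb5 also fell, from 9.25, 11.9 and 10.6 CPM across WT libraries to 8.32, 6.92 and 6.02 CPM across enhancer KO libraries (log2 fold change -0.57, edgeR adjusted p = 0.00656). Pcdhgb6, the most abundant Pcdhgb gene, had 18.2, 18 and 18.9 CPM in WT against 16.8, 17.8 and 16.1 CPM in enhancer KO and did not pass (log2 fold change -0.12, edgeR adjusted p = 0.214). Pcdhgb1 did not pass either (log2 fold change -0.23, edgeR adjusted p = 0.166). The 5 lower Pcdhgb genes passed in every alternative run except the test against a minimum fold of 1.2, where 3 did, against 5.73% of all genes.

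Pcdhga genes form the larger group of alternate gamma protocadherins, and 6 of 12 fell, where 17.9% of all genes did. The median log2 fold change of the 12 was -0.26. Pcdhga9 had 11.2, 11.1 and 10.7 CPM in WT against 7.68, 7.05 and 7.62 CPM in enhancer KO (log2 fold change -0.56 ± 0.0881 SE, edgeR adjusted p = 0.000580). Pcdhga11 had 19.5, 16.6 and 17.8 CPM in WT against 14.5, 14.7 and 14.8 CPM in enhancer KO (log2 fold change -0.30 ± 0.0753 SE, edgeR adjusted p = 0.0108). Both had groups that did not overlap. Pcdhga11 did not pass when libraries were scaled by size alone (edgeR adjusted p = 0.0943).

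The other 4 lower Pcdhga genes were nearer the threshold. Pcdhga10 had 12.4, 13.2 and 15.2 CPM in WT against 9.70, 12.2 and 9.45 CPM in enhancer KO (log2 fold change -0.38, edgeR adjusted p = 0.0237). Pcdhga8 had 13.7, 15.1 and 14.9 CPM in WT against 13.1, 11.9 and 10.6 CPM in enhancer KO (log2 fold change -0.30, edgeR adjusted p = 0.0287). Pcdhga7, the most abundant Pcdhga gene per kilobase, had 16.8, 19.3 and 22.9 CPM in WT against 14.6, 15.9 and 16.2 CPM in enhancer KO (log2 fold change -0.34, edgeR adjusted p = 0.0301). In each of the 3 the groups did not overlap, but the nearest libraries lay close together, 12.2 and 12.4 CPM in Pcdhga10. Pcdhga12, with 14.1, 14.8 and 14.1 CPM in WT against 11.9, 13.3 and 11 CPM in enhancer KO, was the last to pass (log2 fold change -0.25, edgeR adjusted p = 0.0490) and was lost in 5 of 6 fits that left out 1 library, with edgeR adjusted p-values of 0.0668 to 0.147, and by DESeq2, other scalings, no filter, the unstranded column and trend removal. Pcdhga7 and Pcdhga8 were lost in 4 of these fits and Pcdhga10 in 3, and all 3 were lost without WT replicate 3 (edgeR adjusted p = 0.137, 0.0964 and 0.116) and with libraries scaled by size alone (0.0644, 0.120 and 0.0514). Over alternate Pcdhg genes together, 7 of 19 were lower without WT replicate 3, 8 without WT replicate 2 and 6 with libraries scaled by size alone.

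The first Pcdhga genes of the cluster did not pass. Pcdhga1 had a log2 fold change of 0.12, Pcdhga2 of -0.11 and Pcdhga3 of 0.01 (edgeR adjusted p = 0.504, 0.375 and 0.941). Pcdhga4 and Pcdhga5 missed the threshold narrowly with groups that did not overlap (log2 fold change -0.27 and -0.24, edgeR adjusted p = 0.0526 and 0.0556). Pcdhga6 had overlapping groups (log2 fold change -0.19, edgeR adjusted p = 0.127).

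Of the 9 alternate Pcdha genes tested, 2 fell, a share of 22.2% that is near the 17.9% of all genes called lower. Their median level per kilobase was below those of the other subfamilies. Pcdha8 had 1.94, 1.22 and 1.51 CPM in WT against 0.638, 0.520 and 0.647 CPM in enhancer KO, and fell by 1.39 ± 0.254 on the log2 scale (SE; edgeR adjusted p = 0.00160). These levels rest on 63, 25 and 51 reads in WT and 24, 20 and 27 in enhancer KO. Pcdha10 had 4.26, 4.20 and 3.26 CPM in WT against 2.61, 2.42 and 2.33 CPM in enhancer KO (log2 fold change -0.67 ± 0.158 SE, edgeR adjusted p = 0.00754). Both genes had all enhancer KO libraries below all WT libraries, and both passed in each fit that left out 1 library.

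The most abundant alternate Pcdha genes did not pass. Pcdha12 had 7.62, 5.96 and 8.08 CPM in WT against 6.41, 6.19 and 5.83 CPM in enhancer KO (log2 fold change -0.25, edgeR adjusted p = 0.156), though it passed without WT replicate 2 (log2 fold change -0.35, edgeR adjusted p = 0.0468). Pcdha9 had 4.78, 4.84 and 6.39 CPM in WT against 4.78, 2.96 and 4.12 CPM in enhancer KO (log2 fold change -0.44, edgeR adjusted p = 0.0950). The groups overlapped in both. Pcdha1, Pcdha2, Pcdha3 and Pcdha5, the tested genes at the start of the cluster, had log2 fold changes of 0.39, -0.02, 0.08 and 0.06 with overlapping groups. Pcdha11 had all enhancer KO libraries below all WT libraries, at 2.47 to 2.59 against 2.66 to 3.92 CPM, and did not pass (edgeR adjusted p = 0.166). Libraries of a group varied most in this subfamily, with a median coefficient of variation of 17.2% in WT and 11.8% in enhancer KO, against 8.28% and 7.36% over all clustered genes. Its tested genes had only 20 to 273 reads per library, so counting error makes up part of this spread. The summed level of alternate Pcdha genes was 34.8, 29.4 and 33.6 CPM in WT against 28.5, 27.3 and 27.8 CPM in enhancer KO, which did not overlap, though WT replicate 2 lay within 1 CPM of the enhancer KO range.

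Pcdhb genes, which lack the shared cytoplasmic domain of the other clusters, had a median log2 fold change of -0.04 over 21 tested. Only 1 of them, or 4.76%, was lower, where 17.9% of all genes were. Pcdhb14 alone passed, with 12.6, 13.7 and 13.7 CPM in WT against 10.9, 11.1 and 11.3 CPM in enhancer KO (log2 fold change -0.26 ± 0.0769 SE, edgeR adjusted p = 0.0226). It was lost in 4 of the 6 fits without 1 library, with edgeR adjusted p-values of 0.0681 to 0.0876, and by DESeq2 (adjusted p = 0.0733). It was also lost with libraries scaled by size alone (edgeR adjusted p = 0.188). Removing the trend over gene structure left a log2 fold change of -0.13 and no call (edgeR adjusted p = 0.241). No Pcdhb gene was higher by edgeR (0 at an unadjusted p under 0.05, 0 by limma-voom and 0 by DESeq2). The 21 log2 fold changes ran from -0.34 in Pcdhb8 to 0.18 in Pcdhb15. Pcdhb8, with 4.97 to 5.89 CPM in WT and 4.03 to 4.65 in enhancer KO, had groups that did not overlap but missed the threshold (edgeR adjusted p = 0.0628), and Pcdhb15 was the only Pcdhb gene with all enhancer KO libraries above WT (edgeR adjusted p = 0.259).

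The most abundant Pcdhb genes per kilobase were Pcdhb17 and Pcdhb9. Pcdhb17 had 17.8, 18.2 and 18.8 CPM in WT against 17.3, 17.5 and 17.2 CPM in enhancer KO, groups that did not overlap but differed by little (log2 fold change -0.08, edgeR adjusted p = 0.389). Pcdhb9 had 12, 12.4 and 12.8 CPM in WT against 12, 11.9 and 12.3 CPM in enhancer KO (log2 fold change -0.04, edgeR adjusted p = 0.744), with overlapping groups, and its sign turned to 0.02 when libraries were scaled by size alone. Summed Pcdhb levels were 193, 199 and 192 CPM in WT against 188, 177 and 192 CPM in enhancer KO. The ratio of the means was 0.953, and 0.998 with libraries scaled by size alone.

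All 5 C-type genes had positive log2 fold changes, of 0.11 to 0.19, and 1 passed, where 13.4% of all genes were higher. Pcdhgc3 rose from 156, 167 and 181 CPM in the WT libraries to 190, 193 and 193 CPM across enhancer KO libraries (log2 fold change 0.19 ± 0.0513 SE, edgeR adjusted p = 0.0140). Its groups did not overlap, and it passed in all 6 fits without 1 library but not against a minimum fold of 1.2 (edgeR adjusted p = 1). Pcdhac2 had 45.6, 48.7 and 48.5 CPM in WT against 51.6, 51.4 and 53.7 CPM in enhancer KO, also without overlap, and missed the threshold, with a log2 fold change of 0.13 ± 0.0480 (SE) and an adjusted p just above it (edgeR adjusted p = 0.0511). Pcdhac2 passed with RLE scaling, no filter, the unstranded column and removal of the gene-structure trend (edgeR adjusted p = 0.0456, 0.0438, 0.0259 and 0.0270) and in no other alternative.

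The remaining C-type genes had overlapping groups. Pcdhgc4 had 38.4, 33.1 and 37.3 CPM in WT against 41.6, 36.3 and 39.4 CPM in enhancer KO (log2 fold change 0.11, edgeR adjusted p = 0.273). Pcdhgc5, whose protein binds GABA-A receptors, had 14.8, 12.6 and 13.3 CPM in WT against 16.6, 15.1 and 14.5 CPM in enhancer KO (log2 fold change 0.18, edgeR adjusted p = 0.137). Pcdhac1 had 5.27, 4.93 and 5.71 CPM in WT against 6.35, 5.33 and 6.33 CPM in enhancer KO (log2 fold change 0.17, edgeR adjusted p = 0.314). None of these 3 passed in this fit, and Pcdhgc5 did with the trend over gene structure removed (log2 fold change 0.28, edgeR adjusted p = 0.0148).

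The makeup of the clustered transcripts therefore differed in its shares. C-type genes held 37.3% ± 0.991 of the summed CPM of all clustered genes in WT and 43.4% ± 0.264 in enhancer KO (SD, n = 3), from 36.7% to 38.5% across WT libraries and 43.1% to 43.7% across enhancer KO libraries. A large part of this difference lay in Pcdhgc3, which alone held 23.1% ± 1.17 in WT and 27.3% ± 0.526 in enhancer KO. Alternate Pcdhg genes held 31.3% ± 0.450 in WT and 26.2% ± 1.02 in enhancer KO, with ranges of 31.0% to 31.9% and 25.1% to 27.2%. Pcdhb genes held 26.8% ± 0.852 and 26.4% ± 0.860, and these overlapped. Shares do not depend on how libraries were scaled, but 1 share that is higher makes others lower.

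Among alternate Pcdhg and Pcdha genes, log2 fold changes were lower in the later genes, while the C-type genes at the ends of both clusters had positive values. Over the 19 alternate Pcdhg genes, order in the cluster and log2 fold change had a Spearman correlation of -0.62, and the median log2 fold change was -0.23 in the first 9 and -0.45 in the last 10. Pcdhgb1 and Pcdhgb2 are the only Pcdhgb genes among the first 9, and the rest lie in the last 10. Order and subfamily therefore overlap, and the part of each was not tested. Over the 9 tested alternate Pcdha genes the correlation was -0.63, with medians of 0.07 in the first 4 and -0.44 in the last 5. Over the 21 tested Pcdhb genes it was -0.32, with medians of 0.0027 and -0.08. The first 3 tested genes had medians of 0.01 in alternate Pcdhg and 0.08 in alternate Pcdha, against -0.32 and -0.39 in the rest. The change did not deepen up to the last alternate genes, Pcdhga12 and Pcdha12, which both had -0.25. These are descriptions across genes that share the same 6 libraries, and genes are not independent replicates. Own exons of later Pcdha and Pcdhg genes, C-type genes included, lie within the spans of earlier genes of their cluster. Unspliced RNA of earlier genes can therefore add to their counts. Reads outside annotated exons were 32.4% in WT and 17.4% in enhancer KO, and the part of this here was not tested.

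Reads on the strand opposite to the genes were also counted by the authors. They were compared after the values above were seen. In Pcdhb genes they were 0.0831% of the reads of both strands in WT and 0.0776% in enhancer KO, but in alternate Pcdha genes they were 8.23% (7.53% to 9.10% by library) in WT and 5.52% (5.41% to 5.71%) in enhancer KO. In the Pcdhg cluster, high shares stood in the last alternate genes. In Pcdhgb8, 63 reads lay on the opposite strand in WT, or 12.8% (95% Clopper-Pearson interval 9.98% to 16.1%) and 107 in enhancer KO, or 31.6% (26.6% to 36.8%).

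The share at Pcdhgb8 lay between 9.55% and 17.4% across WT libraries and between 27.1% and 35.6% across enhancer KO libraries. For the opposite-strand level itself the edgeR adjusted p was 0.420, with a log2 fold change of 0.31 ± 0.279 (SE). Pcdhgb7 went from 7.99% to 11.4% and Pcdhga12 from 9.26% to 12.7% when the libraries of each group were pooled. Both overlapped by library, Pcdhgb7 at 6.47% to 9.95% in WT against 7.96% to 13.3% in enhancer KO. Pcdhga12 lay at 8.12% to 11.4% against 11.1% to 14.8%. Their opposite-strand levels did not pass (log2 fold change -0.02 and 0.25, edgeR adjusted p = 0.968 and 0.384). In the Pcdha cluster, Pcdha3 stood at 19.0% in WT and 13.7% in enhancer KO, and Pcdha8 at 14.2% and 26.8%. These overlapped by library too, Pcdha3 at 16.4% to 22.1% in WT against 9.20% to 23.1% in enhancer KO. Pcdha8 lay at 10.7% to 19.0% against 14.3% to 32.5%, from 23 and 26 opposite-strand reads per group. Of 8 clustered genes with enough opposite-strand reads for a fit, Pcdha2 passed (log2 fold change -1.31 ± 0.478 SE, edgeR adjusted p = 0.0267), where 33.3% of 5135 genes were lower and 2.34% higher in that fit. That fit was scaled by the library sizes of the main counts. Over all genes, opposite-strand reads were 1.76% to 1.88% of the reads of both strands in WT and 1.62% to 1.70% in enhancer KO.

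GENCODE mouse release 21, on the same build, places a minus-strand gene over all or some of the own exon of 15 clustered genes, 4 in Pcdha, 1 in Pcdhb and 10 in Pcdhg. Gm26672, on chromosome 18 at 37746559 to 37768242, overlaps the own exons of Pcdhga10, Pcdhgb7, Pcdhga11, Pcdhgb8 and Pcdhga12, and Gm10545, at 37008868 to 37020679, overlaps those of Pcdha11 and Pcdha12. Shares differed among overlapped genes, at 1.98% in WT for Pcdha12, 2.31% for Pcdhga10 and 9.15% for Pcdha11. No minus-strand gene lies over the own exons of Pcdha3 and Pcdha8, nor over those of Pcdha1, Pcdha2 and Pcdha5. The latter 3 had shares of 15.1%, 10.6% and 12.3% in WT and 4.58%, 4.75% and 2.64% in enhancer KO. The counts used above take strand into account, and the levels of Gm26672 and Gm10545 themselves were not analysed here. The part of opposite-strand transcription in the lower counts was not tested.

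**Figure D4:**
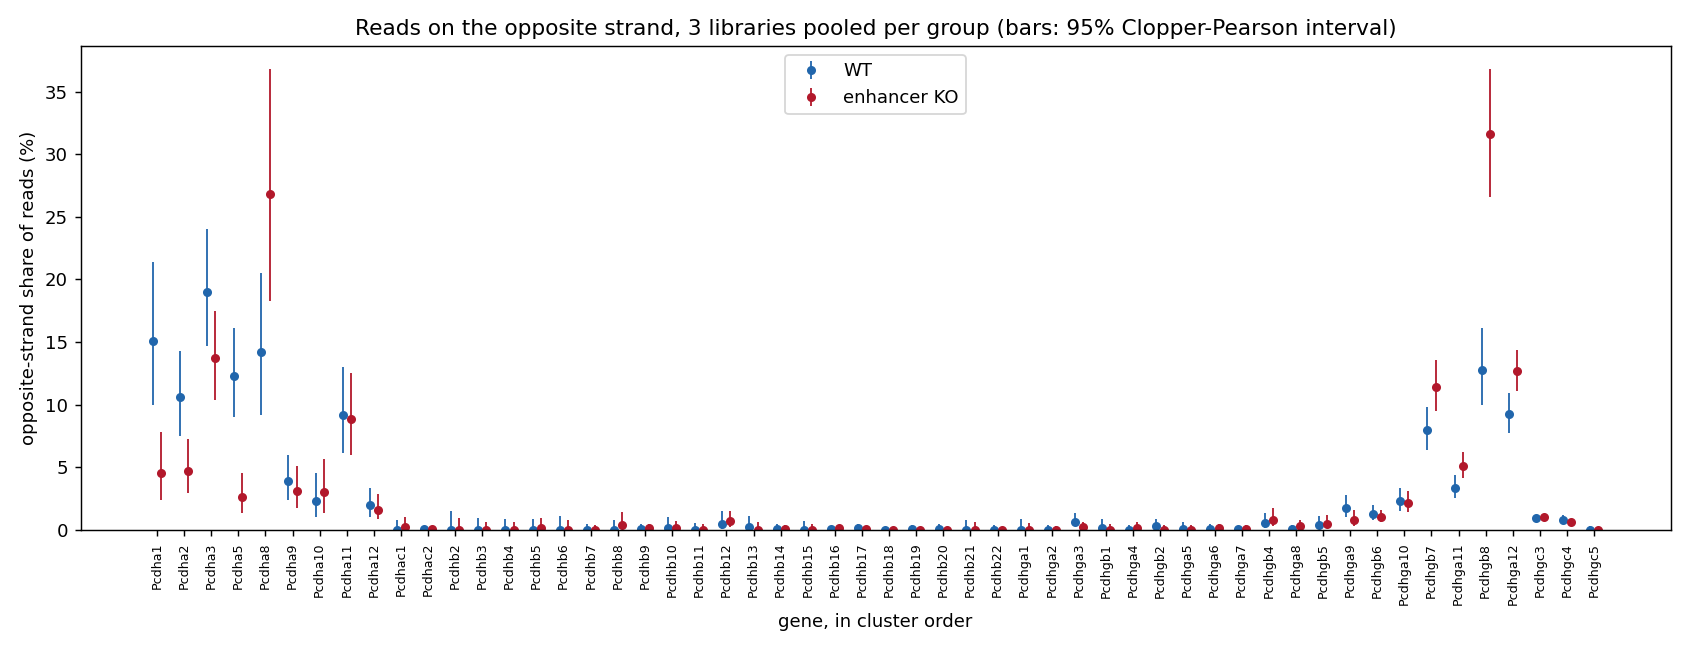
Share of reads on the opposite strand for each tested gene, in percent of the reads of both strands, with the 3 libraries of a group pooled, WT in blue and enhancer KO in red, and 95% Clopper-Pearson intervals as bars that cover counting error only. Shares are near 0 across Pcdhb and low in the C-type genes, and are higher in several alternate Pcdha genes and in the last alternate Pcdhg genes, with 31.6% for Pcdhgb8 in enhancer KO.

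Markers of cell types moved with the groups, where 17.9% of all genes were lower and 13.4% higher. Of 17 granule neuron markers 15 were lower and 0 higher by edgeR, limma-voom and DESeq2 (0 higher at an unadjusted p under 0.05), with sums of 3927 to 4695 CPM in WT against 2518 to 3140 CPM in enhancer KO. Of 16 Purkinje markers 10 were higher, and the sums were 6956 to 8179 CPM in WT against 9447 to 9906 CPM in enhancer KO. Astroglial markers summed to 6918 to 7044 CPM in WT against 8080 to 8517 CPM in enhancer KO, with 5 of 12 higher, and endothelial markers to 278 to 318 and 228 to 268 CPM, with 6 of 10 lower. Interneuron markers had 3 of 10 higher, microglial markers 5 of 11 higher, and oligodendrocyte markers 3 of 12 lower and 1 higher. Choroid plexus markers ranged from 1199 to 1871 CPM in WT against from 816 to 2038 CPM in enhancer KO. The part of these differences, and of the reads outside exons, in the levels of Pcdhg, Pcdha and C-type genes was not tested.

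Genes known to control or silence the clusters included 10 lower of 22 tested, where 17.9% of all genes were lower. Nipbl, which loads cohesin, stood at 147 ± 5.72 CPM in WT against 111 ± 1.34 CPM in enhancer KO (SD, n = 3; log2 fold change -0.40, edgeR adjusted p = 3.41e-05). Setdb1, a histone methyltransferase known to act on the clusters' chromatin, and Smc1a, a cohesin subunit, fell by 0.36 and 0.34 on the log2 scale (edgeR adjusted p = 0.000166 and 0.000447). Smchd1, which silences Pcdh clusters, was named after its values were seen and fell by 0.39 (edgeR adjusted p = 0.000455). CTCF's own gene Ctcf, also named after its values were seen, did not pass (log2 fold change -0.10, edgeR adjusted p = 0.101).

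Of 25 genes listed as partners of clustered protocadherins inside the cell and at its surface, 2 were lower and 7 higher, where 17.9% and 13.4% of all genes were. Rock1, a kinase that acts on the actomyosin cytoskeleton, and Ptk2, a focal adhesion kinase, fell by 0.35 and 0.17 on the log2 scale (edgeR adjusted p = 0.000816 and 0.00664). Nlgn2, a neuroligin of inhibitory synapses, and Brk1, a subunit of the WAVE complex, rose by 0.16 and 0.17 (edgeR adjusted p = 0.0158 and 0.0159). Rora, a nuclear receptor gene counted among the 7, rose by 0.32 (edgeR adjusted p = 0.000612) and is on the Purkinje list as well.

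Genes flanking the clusters had 6 lower and 6 higher of 22, with a median log2 fold change of -0.06, where 17.9% of all genes were lower and 13.4% higher. Between the Pcdhb and Pcdhg clusters, Taf7 stood at 19.3 ± 1.08 CPM in WT against 18.3 ± 0.815 CPM in enhancer KO (SD, n = 3; log2 fold change -0.07, edgeR adjusted p = 0.492). Upstream genes Tmco6 and Hars2 fell by 0.52 and 0.31 (edgeR adjusted p = 0.00170 and 0.00553), and their neighbour Ndufa2, a complex I subunit gene, rose by 0.32 (edgeR adjusted p = 0.00197). Hdac3, a histone deacetylase gene beyond the Pcdhg cluster, fell by 0.20 (edgeR adjusted p = 0.00534).

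Of 12 protocadherins outside the clusters 2 were lower and 3 higher, where 17.9% of all genes were lower and 13.4% higher, so neither share stands apart as a result about the family. Pcdh15, known for hair cell tip links, and Pcdh9 fell by 0.68 and 0.35 on the log2 scale (edgeR adjusted p = 0.000222 and 0.00139). Pcdh10, Pcdh17 and Pcdh19, of the delta group, rose by 0.30, 0.20 and 0.22 (edgeR adjusted p = 0.00354, 0.0171 and 0.0401). Their summed level overlapped between the groups, at 1136 to 1283 CPM in WT against 1169 to 1204 CPM in enhancer KO.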

How the data were processed

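Trimmomatic was used for trimming and STAR for alignment to mm10, per the submitters' processing notes. For versions, annotation and settings, values were not given in the sources used here. Each deposited file holds raw read counts per gene, unstranded and for each strand, with no normalization by the authors. The column for 1 strand that holds nearly all stranded reads was used. The 4 rows that name no gene entered neither library sizes nor tests. By library they held 7.79% to 20.4% of all reads as unmapped, 7.10% to 11.3% as aligned to several places and 16.8% to 34.1% as outside exons, beside the ambiguous reads.

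Genes were filtered with filterByExpr and scaled by TMM. The 2 groups were compared by the quasi-likelihood test of edgeR 4.0.16 in R 4.3.3 (robust, two-sided, no replicate block), with Benjamini-Hochberg adjustment over 15846 genes and a threshold of 0.05. CPM use TMM-scaled library sizes. A negative log2 fold change is lower in enhancer KO. The test was checked on simulated counts. limma 3.58.1, DESeq2 1.42.0, other scalings, filters and columns, a minimum fold, removal of a trend over gene structure (mgcv 1.9.3, with lengths and GC content from GENCODE mouse release 21) and leaving out each library were alternatives. Opposite-strand counts were fitted with the same test over 5135 genes. They were scaled by the TMM-scaled library sizes of the main counts, with no TMM scaling of their own. Lengths of own exons come from GENCODE models matched to RefSeq for Pcdha and Pcdhg and from RefSeq spans for Pcdhb, and 58 of 59 symbols matched RefSeq, with Pcdha7-g a RefSeq synonym.

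No pair of libraries agreed within sampling noise (the closest pair had a median chi-square of 1.13, where noise alone gives 0.455). The clustered genes, the gene lists and the tests were chosen with earlier results of these data known. Genes given library by library were the C-type genes and, in each other subfamily, the 2 highest in level and up to 4 in each direction past the threshold with the smallest p. Pcdhgb5 and Pcdhga12 were given so as well, and other clustered genes named, after their values were seen. From each list up to 3 genes per direction past the threshold with the smallest p could be named. A gene that this rule would name is not reported here.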

Additional observations from a re-analysis of the deposited data

How the results depend on the processing

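The 14 lower calls became 8 with libraries scaled by size alone, 5 against a minimum fold of 1.2 (8 at an unadjusted p under 0.05) and 9 to 14 when each library was left out, with 9 without WT replicate 3. RLE scaling gave 13, no filter 13, a filter of 1 CPM 16, the unstranded column 13, limma-voom 14, DESeq2 12 and removal of the trend over gene structure 14. The 1 higher call became 2 with RLE scaling, 2 with no filter, 2 with the unstranded column, Pcdhac2 being added each time, and 3 with the trend removed, where Pcdhac2 and Pcdhgc5 were added. Against the minimum fold edgeR gave 0 (0 at an unadjusted p under 0.05). Leaving out each library gave 1 to 2, with 2 without WT replicate 1, where Pcdha1 was added. Pcdhb9 turned to a log2 fold change of 0.02 and the ratio summed over all members to 1.01 with libraries scaled by size alone, which moved the median of all genes to 0.063. Library size includes the Rn45s reads, whose share was highest in WT replicate 2 (12.9% of gene reads), and their part was not tested. Lower genes were 57.3% of all calls, 43.8% with libraries scaled by size alone, 45.0% with the trend removed and 91.6% against the minimum fold. The cause was not tested. Of the 15 calls, 10 passed in every fit without 1 library.

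Replicate numbers are shared by the groups, but same-numbered libraries did not deviate together (correlations of 0.05, -0.04 and -0.08). With a replicate block 14 were lower and 1 higher. Depth limits Pcdha8, which rests on 20 to 63 reads per library.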
